A study of Mus musculus with 10 samples.

Results

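The genes described here encode 10 enzymes that make NAD+ from vitamin B3 precursors, turn it into NADP(H), or dispose of nicotinamide. They were chosen by name, with no expression value in the rule, from the 41388 genes listed in each liver RNA-seq library, and all 10 passed the filter on low values. Livers came from 10 mice of about 12 weeks of age, labelled as strain C57B/6J and described as littermates, with 1 library per mouse. All mice carried loxP-flanked Nampt alleles. The 2 WT Refed mice had no Cre, were fasted for 22 h and were then refed for 2 h before the liver was taken. The 3 WT Fasting mice had no Cre and were fasted for 24 h. The 5 NAMPT LKO Fasting mice carried Albumin-cre, which the study used to delete Nampt in hepatocytes only, and were fasted for 24 h. The published account of these mice gives a shorter fast and random-fed controls, and the labels were followed here. There were no refed NAMPT LKO livers, so an effect of the deletion on the response to feeding could not be tested.

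NAD+ carries electrons in oxidation, and it is also consumed by sirtuins and poly(ADP-ribose) polymerases, which release nicotinamide. Nicotinamide is recycled to NAD+ by the salvage pathway, whose rate-limiting step is NAMPT. Nicotinic acid enters by the Preiss-Handler pathway, nicotinamide riboside enters through a kinase, and the liver can in addition build NAD+ from tryptophan. Nicotinamide that is not recycled is methylated by NNMT and excreted.

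The libraries held between 30603080 and 43434139 counts. Hepatocyte markers dominated every library, with a summed level of 71260 to 122000 CPM (counts per 1000000 counts of the library, here and below with TMM scaling), which is what the liver label calls for. Genes of the mitochondrial genome took 7.42% of counts in WT Fasting 3, the lowest share, and 21.1% in NAMPT LKO Fasting 5, the highest, against 10.4% to 12.9% in the other 8 livers. Leaving out this pair of libraries left Nampt as the single gene called in NAMPT LKO Fasting against WT Fasting livers, and the other values it touches are given beside the results. The quasi-likelihood test of edgeR was run on the 13444 genes that passed the filter, and a gene was called when its p, adjusted by Benjamini-Hochberg over all of them, was at or under 0.05. All adjusted p below are of this kind unless another tool is named. The p-values set a difference of group means against the spread between mice within groups, estimated over all 3 groups in one fit. The lowest count of any of the 10 genes in any library was 140, for Nmnat3, where counting alone gives an SD of 8.45%, and for the other 9 genes that SD was at most 5.17%.

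The stretch just before the Nampt gene is shown because Nampt was the only 1 of the 10 genes called by the quasi-likelihood test in any comparison and because the window lies outside all annotated exons. It holds the 250 bases before the transcript start, GRCm38 chr12:32820085-32820334, plus strand, from RefSeq, with matches to the GC box (GGGCGG on either strand) in capitals.
Nampt: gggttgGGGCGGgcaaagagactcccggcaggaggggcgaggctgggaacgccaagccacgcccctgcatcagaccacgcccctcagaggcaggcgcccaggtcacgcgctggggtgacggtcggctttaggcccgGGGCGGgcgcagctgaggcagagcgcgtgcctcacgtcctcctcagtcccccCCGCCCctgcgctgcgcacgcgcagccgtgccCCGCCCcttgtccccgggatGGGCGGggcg
The window held 5 GC boxes and 27 CpG dinucleotides, and 75.6% of its bases were G or C. At least 1 GC box was found in 32.7% of the 32851 windows of this kind. The number of GC boxes, the CpG count and the share of G or C were not set against other windows. The E-box CACGTG, the motif bound by the clock factors CLOCK and BMAL1, was not in this window and was in 6.02% of all windows. The FOXO core GTAAACA was not in it either and was in 3.17% of all windows. These matches describe letters only. No binding was measured here.

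The targeted gene Nampt has the identifier ENSMUSG00000020572 and the position chr12:32820335-32853369 of GRCm38, plus strand. In the WT Refed livers its level was 78.0 and 67.8 CPM. In the WT Fasting livers it was 63.0, 73.4 and 141 CPM. In the NAMPT LKO Fasting livers it was 12.1, 14.0, 11.8, 12.5 and 15.3 CPM. All 5 livers with the deletion lay far below every liver without it, and 1 of the 3 WT Fasting livers stood above the rest. Nampt fell to 14.2% of its WT Fasting mean (92.4 ± 42.3 CPM, SD, n = 3) where it was deleted in hepatocytes (13.2 ± 1.49 CPM, SD, n = 5). The log2 fold change was -2.81, with a 95% confidence interval from -3.31 to -2.32 (adjusted p = 0.00102, edgeR's quasi-likelihood test). The exact two-sided permutation test over livers gave p = 0.0179, the smallest that 5 livers against 3 allow. Against WT Refed livers the log2 fold change was -2.47, with an interval from -3.002 to -1.94 (adjusted p = 0.000267, edgeR's quasi-likelihood test). Reads were counted over the whole gene, so exons outside the deleted part count as well, and in whole liver fewer cells of a type and less RNA per cell cannot be told apart. The lncRNA gene Gdap10 lies within the span of Nampt on the same strand and shares 0 exonic bases with it. Its level was between 1.10 and 5.44 CPM.

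No difference in Nampt between fasted and refed WT livers was detectable. It had a log2 fold change of 0.34, with an interval from -0.28 to 0.97 (adjusted p = 0.517, edgeR's quasi-likelihood test). This value rested on WT Fasting 3, which was 1.05 above the mean of the other 2 WT Fasting livers on the log2 scale. Without that liver the log2 fold change of Nampt was -0.11 (adjusted p = 0.777, edgeR's quasi-likelihood test), and without both WT Fasting 3 and NAMPT LKO Fasting 5 it was -0.10. The Nampt decrease in NAMPT LKO Fasting livers was -2.37 without WT Fasting 3. In the WT Fasting group, the summed level of the 6 Kupffer cell and macrophage markers, all of them detected, ranged from 186 to 366 CPM and was highest in the same liver. Its part in the Nampt level was not tested.

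**Figure D1:**
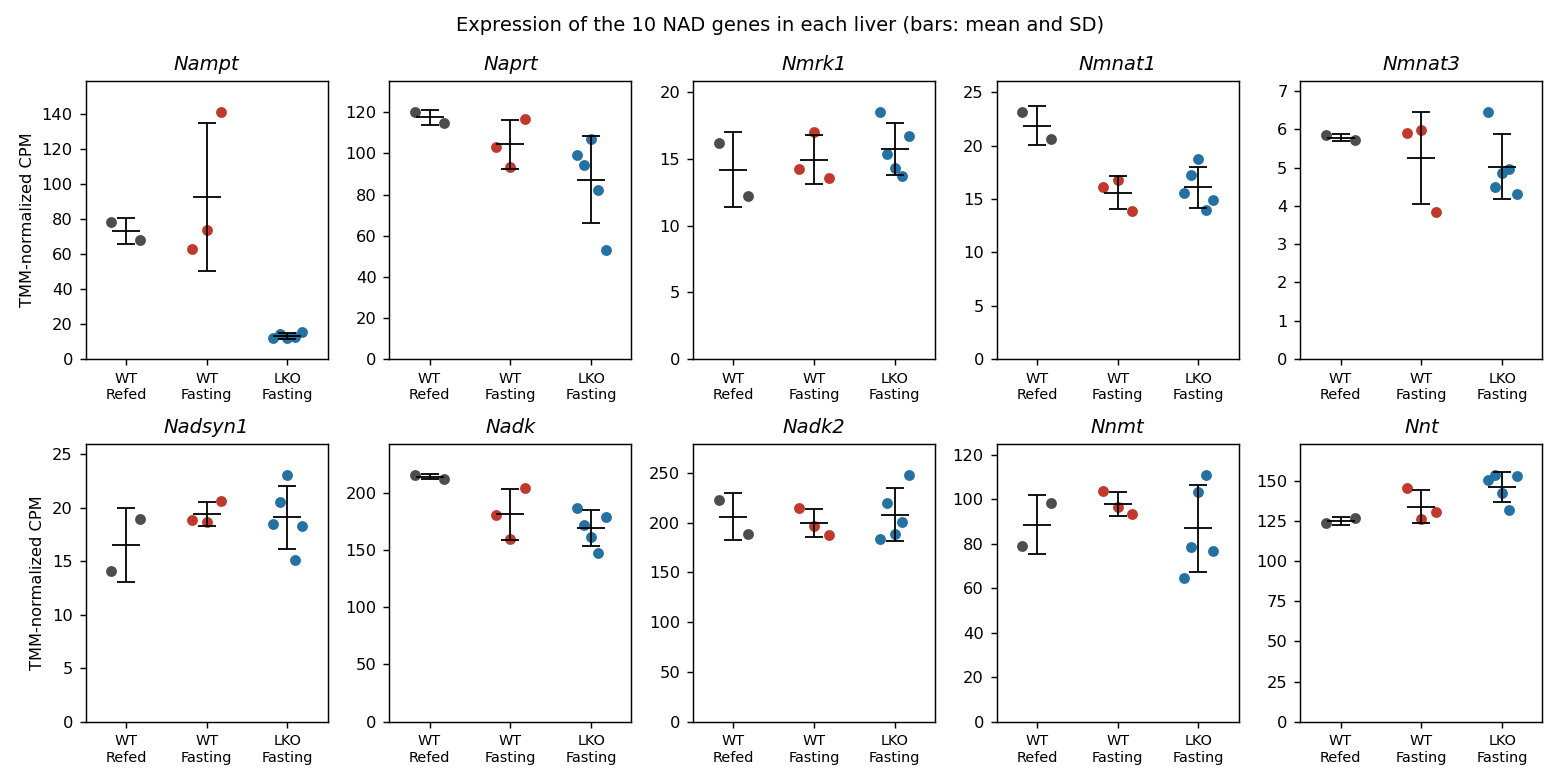
TMM-normalized CPM of the 10 genes (y axis, starting at 0) in each liver, with 1 point per mouse and the group mean and SD as black bars for 2 WT Refed, 3 WT Fasting and 5 NAMPT LKO Fasting livers. Nampt sits between 11.8 and 15.3 CPM in the livers with the deletion and between 63.0 and 141 CPM in the others, while the groups of most other genes overlap.

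In NAMPT LKO Fasting against WT Fasting livers, 1 of the 10 genes was called, which is Nampt, and the same gene was the single gene called among all 13444, or 0.00744%. At an unadjusted p under 0.05 the count was again 1 of 10, against 6.03% of all genes, and 1 of 10 did not overlap between the groups, against 3.99% of all genes. None of the 9 other enzymes passed the test, and for each the 95% interval of the log2 fold change lay within -0.68 and 0.39. The median log2 fold change of the 10 genes was -0.04, and it was 0.00 over all genes.

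Between WT Fasting and WT Refed livers, 0 of the 10 genes were called, against 7.04% of all genes. By other tools the count was 2 with voomWithQualityWeights and 1 with DESeq2. At an unadjusted p under 0.05, 1 of the 10 passed, against 22.3% of all genes, and 2 of the 10 did not overlap between the groups, against 49.7%. Both of these were lower in fasted livers. They were Nmnat1 and Nadk. The median log2 fold change of the 10 genes was 0.01, and it was 0.04 over all genes. Between NAMPT LKO Fasting and WT Refed livers, 1 of the 10 was called, against 11.2% of all genes, 3 passed an unadjusted p under 0.05, against 26.1%, and 5 did not overlap, against 33.5%. Of those 5, Nampt, Naprt, Nmnat1 and Nadk were lower and Nnt was higher. This comparison and the one before it use the same 2 refed livers, so they are not independent of each other.

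**Figure D2:**
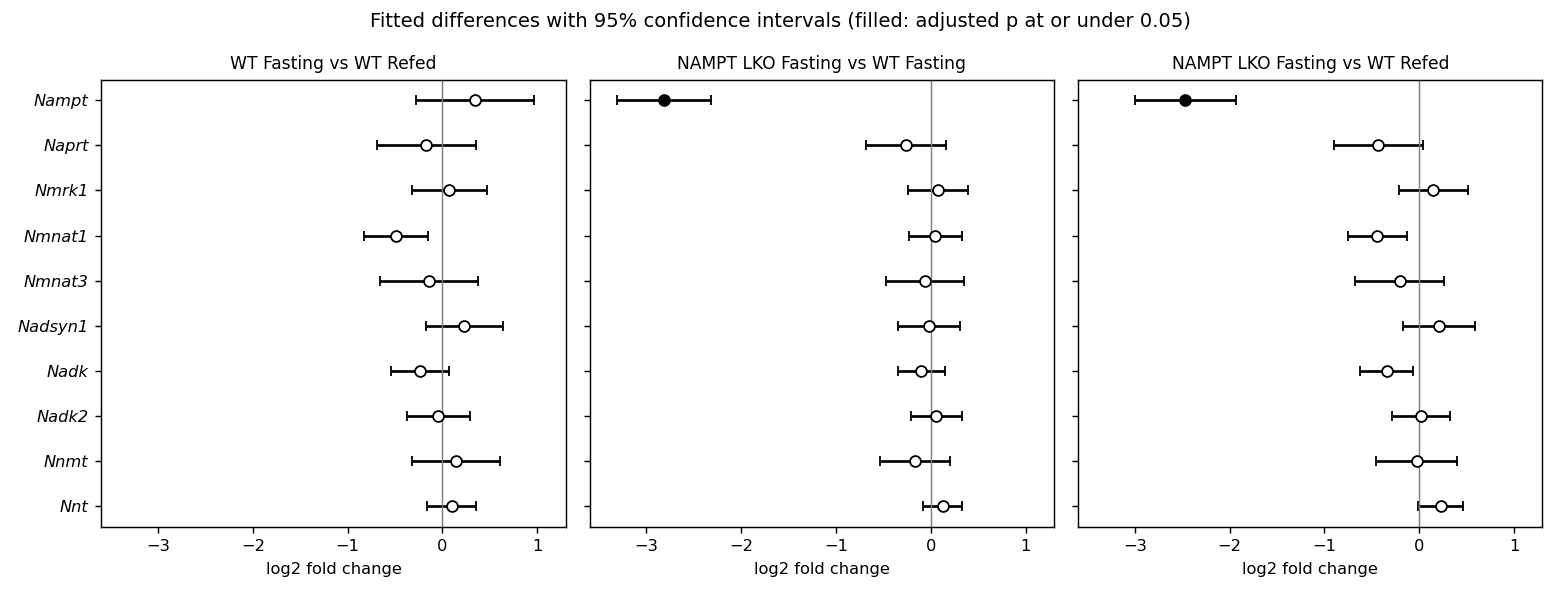
Fitted log2 fold change of each gene (x axis) in the 3 comparisons, with 95% confidence intervals as horizontal bars and filled circles where the adjusted p was at or under 0.05. Nampt, at -2.81 against WT Fasting and -2.47 against WT Refed livers, holds both filled circles.

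The other routes into NAD+ start from nicotinic acid and from nicotinamide riboside. Naprt (ENSMUSG00000022574, chr15:75890964-75894481 of GRCm38, minus strand) encodes the enzyme that commits nicotinic acid to the Preiss-Handler pathway. Its level was 120 and 115 CPM in WT Refed livers. It was 103, 93.4 and 117 CPM in WT Fasting livers. It was 99.1, 94.6, 107, 82.4 and 52.9 CPM in NAMPT LKO Fasting livers. NAMPT LKO Fasting 5 was the lowest, at -0.84 below the mean of the other 4 on the log2 scale. The log2 fold change in NAMPT LKO Fasting against WT Fasting livers was -0.26, with an interval from -0.68 to 0.16 (adjusted p = 0.844, edgeR's quasi-likelihood test). Without NAMPT LKO Fasting 5 it was -0.13. Against WT Refed livers it was -0.43 (adjusted p = 0.236, edgeR's quasi-likelihood test), and voomWithQualityWeights called it (adjusted p = 0.0412).

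Nmrk1 (ENSMUSG00000037847, chr19:18631950-18652194 of GRCm38, plus strand) encodes the kinase that phosphorylates nicotinamide riboside. Its level ranged from 12.2 to 16.2 CPM in WT Refed, from 13.6 to 17.0 CPM in WT Fasting and from 13.7 to 18.5 CPM in NAMPT LKO Fasting livers. The 3 groups overlapped, and the log2 fold change in NAMPT LKO Fasting against WT Fasting livers was 0.08, with an interval from -0.24 to 0.39. Its paralog Nmrk2, the muscle form, did not pass the filter on low values.

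Taken per length, as RPKM computed from the TMM-scaled counts, Naprt was the most abundant of the 3 entry enzymes in every group. In WT Fasting livers Nampt made up 24.6 ± 6.64% (SD, n = 3) of the summed RPKM of Nampt, Naprt and Nmrk1, with livers from 19.1% to 32.0%. In WT Refed livers it made up 18.8% and 20.1%. In NAMPT LKO Fasting livers it made up 5.72 ± 2.08% (SD, n = 5), with livers from 4.09% to 9.28%. The share of Naprt was 69.6 ± 5.63% (SD, n = 3) in WT Fasting and 85.2 ± 4.71% (SD, n = 5) in NAMPT LKO Fasting livers. These shares sum to the whole, so the share of Naprt rises when Nampt falls, although the level of Naprt did not pass the test.

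The next step joins the mononucleotide to ATP. Nmnat1 (ENSMUSG00000028992, chr4:149467572-149485202 of GRCm38, minus strand) encodes the nuclear adenylyltransferase that serves the salvage and the Preiss-Handler branches alike. Its level was 23.2 and 20.6 CPM in WT Refed livers. It was 16.1, 16.8 and 13.8 CPM in WT Fasting livers. It was 15.5, 17.3, 18.8, 14.0 and 14.9 CPM in NAMPT LKO Fasting livers. Both refed livers lay above all 8 fasted livers, whatever their genotype. The mean was 71.2% of the WT Refed mean in WT Fasting livers (15.6 ± 1.54 CPM, SD, n = 3, against 21.9 ± 1.83 CPM, SD, n = 2). This is a log2 fold change of -0.49, with an interval from -0.83 to -0.15. It missed the threshold over all genes (adjusted p = 0.0857, edgeR's quasi-likelihood test), and an exact permutation test cannot go below 0.10 for 3 livers against 2. The call depended on the test. Nmnat1 was called with voomWithQualityWeights (adjusted p = 0.0158), with DESeq2 (adjusted p = 0.0365), in the fit of these 2 groups alone (adjusted p = 0.0442) and without NAMPT LKO Fasting 5 (adjusted p = 0.0389), but not with edgeR's exact test (adjusted p = 0.0936). In all 19 alternatives it was lower in WT Fasting livers, by -0.58 to -0.41 on the log2 scale. Against the same refed livers, NAMPT LKO Fasting livers had a log2 fold change of -0.44 (adjusted p = 0.0678, edgeR's quasi-likelihood test). That difference was called in 5 of 19 alternatives, with voomWithQualityWeights (adjusted p = 0.011), with DESeq2 (adjusted p = 0.0304), without NAMPT LKO Fasting 3, without NAMPT LKO Fasting 5 and without WT Fasting 3 and NAMPT LKO Fasting 5 together. For the deletion itself, NAMPT LKO Fasting against WT Fasting livers, Nmnat1 had a log2 fold change of 0.05, with an interval from -0.23 to 0.32. The window before the start of Nmnat1 lies mostly in exons of the neighbouring gene Lzic and is not shown. Tmem274 lies on the opposite strand within the span of Nmnat1, shares 0 exonic bases with it and had between 3 and 28 counts.

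Nmnat3 (ENSMUSG00000032456, chr9:98287435-98420438 of GRCm38, plus strand) encodes the form assigned to mitochondria. It was the least abundant of the 10 genes per length in every group. Its level was 5.85 and 5.72 CPM in WT Refed livers. It was 5.89, 5.98 and 3.85 CPM in WT Fasting livers and ranged from 4.32 to 6.45 CPM in NAMPT LKO Fasting livers. WT Fasting 3, the liver with the highest Nampt, had the lowest Nmnat3 of its group. The log2 fold change against WT Fasting was -0.06 in NAMPT LKO Fasting livers, with an interval from -0.48 to 0.36. Within a liver, Nmnat1 exceeded Nmnat3 in RPKM by 5.93 and 6.53 times in WT Refed, by 4.51 to 5.92 times in WT Fasting and by 3.97 to 6.36 times in NAMPT LKO Fasting livers. Nadsyn1 (ENSMUSG00000031090, chr7:143795584-143822849 of GRCm38, minus strand) encodes NAD synthetase, which amidates the nicotinic acid form and so closes both the Preiss-Handler and the tryptophan routes. Its level ranged from 14.1 to 19.0 CPM in WT Refed, from 18.6 to 20.7 CPM in WT Fasting and from 15.1 to 23.1 CPM in NAMPT LKO Fasting livers. The groups overlapped, and the largest of its 3 log2 fold changes was 0.23, in WT Fasting against WT Refed livers, with an interval from -0.18 to 0.64. It was 0.02 without WT Refed 1 and 0.45 without WT Refed 2.

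NAD kinases add the phosphate that makes NADP+, the carrier of reducing power for synthesis and antioxidant defence. Nadk (ENSMUSG00000029063, chr4:155562378-155591001 of GRCm38, plus strand) encodes the cytosolic kinase. Its level was 216 and 212 CPM in WT Refed livers. It was 181, 159 and 204 CPM in WT Fasting livers. It was 187, 172, 161, 147 and 179 CPM in NAMPT LKO Fasting livers. Both refed livers again lay above all 8 fasted livers. In WT Fasting livers the log2 fold change was -0.24, with an interval from -0.55 to 0.07 (adjusted p = 0.345, edgeR's quasi-likelihood test). It was -0.34 in NAMPT LKO Fasting against WT Refed livers, with an interval from -0.62 to -0.06 (adjusted p = 0.113, edgeR's quasi-likelihood test). Neither passed the threshold, and voomWithQualityWeights called both, with an adjusted p = 0.0386 for WT Fasting and an adjusted p = 0.0103 for NAMPT LKO Fasting livers. Without WT Fasting 3 and NAMPT LKO Fasting 5, the quasi-likelihood test called Nmnat1 and Nadk beside Nampt in NAMPT LKO Fasting against WT Refed livers.

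Nadk2 (ENSMUSG00000022253, chr15:9071260-9110487 of GRCm38, plus strand) encodes the mitochondrial kinase. Its level was 222 and 189 CPM in WT Refed livers, ranged from 187 to 215 CPM in WT Fasting and from 183 to 248 CPM in NAMPT LKO Fasting livers. The log2 fold changes were -0.04, 0.06 and 0.02 in the 3 comparisons, with intervals within -0.38 and 0.33, and they changed sign with the setting. The ratio of Nadk to Nadk2 in RPKM was 1.21 ± 0.13 (SD, n = 2) in WT Refed, 1.06 ± 0.18 (SD, n = 3) in WT Fasting and 0.953 ± 0.14 (SD, n = 5) in NAMPT LKO Fasting livers. The 3 groups overlapped in it. Nnt (ENSMUSG00000025453, chr13:119335448-119408997 of GRCm38, minus strand) encodes the transhydrogenase of the inner mitochondrial membrane, which makes NADPH from NADH. The C57BL/6J strain is known for a deletion of several exons in this gene, which a count per gene does not show. Its level was 123 and 127 CPM in WT Refed livers. It was 145, 126 and 130 CPM in WT Fasting livers. It was 151, 154, 142, 132 and 153 CPM in NAMPT LKO Fasting livers, all of them above both refed livers. Against WT Refed livers the log2 fold change was 0.23, with an interval from -0.01 to 0.46 (adjusted p = 0.214, edgeR's quasi-likelihood test), and voomWithQualityWeights called it (adjusted p = 0.0423).

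Nnmt (ENSMUSG00000032271, chr9:48591877-48605153 of GRCm38, minus strand) encodes the methyltransferase that clears nicotinamide with S-adenosylmethionine as methyl donor. Its level was 79.1 and 98.1 CPM in WT Refed livers. It was 104, 96.3 and 93.4 CPM in WT Fasting livers. It was 64.8, 78.6, 103, 111 and 76.9 CPM in NAMPT LKO Fasting livers. The livers with the deletion spread widely and overlapped both other groups. The log2 fold change against WT Fasting livers was -0.17, with an interval from -0.54 to 0.20 (adjusted p = 0.863, edgeR's quasi-likelihood test). Within a liver, Nnmt exceeded Nampt in RPKM by 2.93 and 4.18 times in WT Refed livers, by 1.91 to 4.76 times in WT Fasting livers and by 14.5 to 25.6 times in NAMPT LKO Fasting livers. The 5 livers with the deletion lay above all others in this ratio. Nampt is its denominator, so the ratio rises when Nampt falls, although the level of Nnmt itself did not pass the test.

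Levels per length spread the 10 genes widely. In WT Fasting livers Nnmt (62.1 ± 3.42 RPKM, SD, n = 3), Naprt (55.3 ± 6.27), Nadk (48.4 ± 5.97) and Nadk2 (46.0 ± 3.23) came first, and each overlapped its neighbour in range, although Naprt exceeded Nadk within each of the 3 livers. Nampt (20.3 ± 9.31 RPKM) and Nnt (19.0 ± 1.45) followed and overlapped each other. Nadsyn1 (5.86 ± 0.34 RPKM), Nmnat1 (5.13 ± 0.51) and Nmrk1 (4.46 ± 0.55) came next, with no overlap between Nadsyn1 and Nmnat1. Nmnat1 and Nmrk1 overlapped in range, and within each of the 3 livers Nmnat1 was the higher. Nmnat3 was last, at 1.05 ± 0.24 RPKM. In WT Refed livers Naprt led at 62.2 ± 1.99 RPKM (SD, n = 2), and Nmnat1, at 7.21 ± 0.60 RPKM, stood above Nadsyn1 without overlap. In NAMPT LKO Fasting livers Nampt, at 2.90 ± 0.33 RPKM (SD, n = 5), ranked ninth, below Nmrk1 and above Nmnat3 with no overlap on either side. The order of the leading 4 genes was not resolved in NAMPT LKO Fasting livers, where each overlapped the next.

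**Figure D3:**
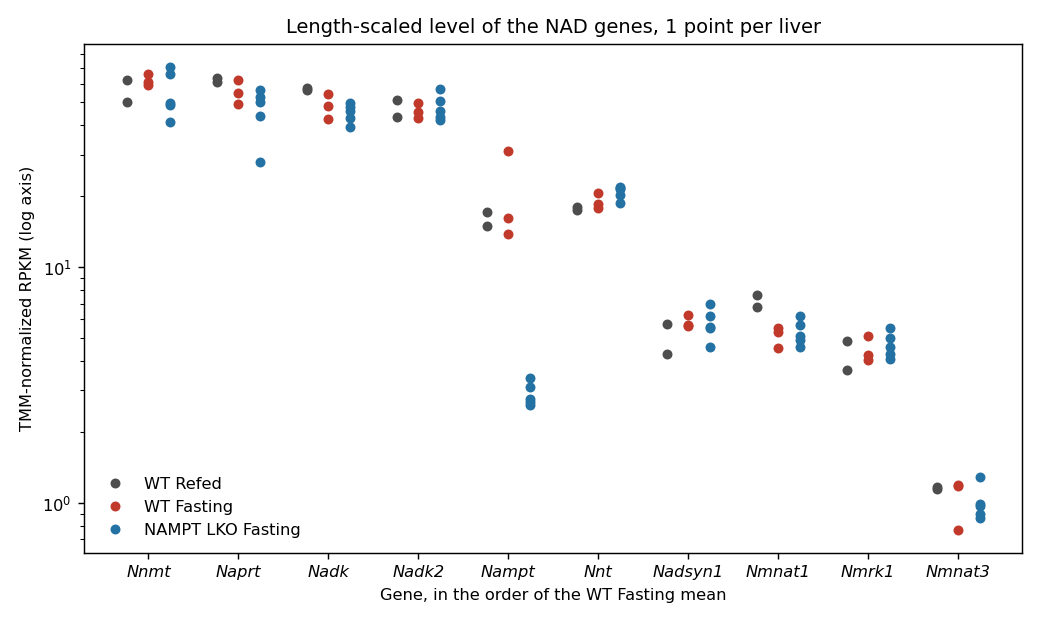
TMM-normalized RPKM on a log axis, with 1 point per liver, for the 10 genes in the order of their WT Fasting mean, in WT Refed, WT Fasting and NAMPT LKO Fasting livers. Nampt drops from a mean of 20.3 to 2.90 RPKM between WT Fasting and NAMPT LKO Fasting livers, which takes it below Nadsyn1, Nmnat1 and Nmrk1.

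The 10 genes were set beside other enzymes and carriers of NAD metabolism, taken from 7 lists of 63 genes by function, of which 62 were found in the files and 55 were tested. In NAMPT LKO Fasting against WT Fasting livers 0 of the 55 were called by the quasi-likelihood test, and 6 passed an unadjusted p under 0.05, against 6.03% of all genes. DESeq2 and voomWithQualityWeights also called 0. Between WT Fasting and WT Refed livers 4 of the 55 were higher, 2 were lower and 49 did not pass, with 7.04% of all genes called. Between NAMPT LKO Fasting and WT Refed livers 7 were higher and 2 were lower, with 11.2% of all genes called. The 7 include Bst1, which passed the filter on low values through NAMPT LKO Fasting 3 alone. The counts against refed livers leaned on that pair of mice. Without WT Refed 1 the calls in WT Fasting livers were 2, Ahcyl2 and Enpp3, and without WT Refed 2 there was 1, Enpp3. Without NAMPT LKO Fasting 5 there were 12. Against the refed livers the count in NAMPT LKO Fasting livers was 3 without WT Refed 1, 2 without WT Refed 2 and 15 without NAMPT LKO Fasting 5. Of the 10 fits of WT Fasting against WT Refed livers that leave out 1 library each, Enpp3 was called in 10, Ahcyl2 in 9, Ahcy and Slc25a51 in 8, Parp1 in 6 and Sirt1 in 3. Of those of NAMPT LKO Fasting against WT Refed livers, Enpp3 and Ahcyl2 were called in 10, Enpp1 in 9, Sirt1, Parp1 and Slc25a51 in 8, Ahcy in 6, Bst1 in 6 of the 9 that tested it, and Tdo2 in 4.

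The methyl supply that NNMT draws on held both directions. Ahcy, which removes the S-adenosylhomocysteine left by methyl transfer, rose in WT Fasting livers from 1860 ± 64.6 CPM (SD, n = 2) to 3021 ± 161 CPM (SD, n = 3), a log2 fold change of 0.70 (adjusted p = 0.00743, edgeR's quasi-likelihood test). Ahcyl2, a related protein without known hydrolase activity, fell from 30.9 ± 0.30 CPM (SD, n = 2) to 13.8 ± 1.91 CPM (SD, n = 3), a log2 fold change of -1.16 (adjusted p = 0.00402). The other 5 of the 7 tested genes of this list did not pass, and 7.04% of all genes were called. Gnmt, which uses up S-adenosylmethionine, had the lowest p of this list in NAMPT LKO Fasting against WT Fasting livers, with 1350 ± 151 CPM (SD, n = 5) against 1832 ± 216 CPM (SD, n = 3) and a log2 fold change of -0.44 that did not pass (adjusted p = 0.761, edgeR's quasi-likelihood test).

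Of 12 tested genes of NAD(P) transport, repair and breakdown, 2 rose in WT Fasting livers and 0 fell, with 7.04% of all genes called. Slc25a51, the carrier that brings NAD+ into mitochondria, rose from 50.9 ± 6.20 CPM (SD, n = 2) to 86.8 ± 5.54 CPM (SD, n = 3), a log2 fold change of 0.77 (adjusted p = 0.0111, edgeR's quasi-likelihood test). Enpp3, an ectoenzyme that cleaves nucleotides outside the cell, rose from 26.8 ± 5.17 CPM to 67.4 ± 5.30 CPM, a log2 fold change of 1.33 (adjusted p = 0.00203). Enpp1 was called beside these 2 in NAMPT LKO Fasting against WT Refed livers, with a log2 fold change of 0.56 (adjusted p = 0.0169). Noct, which removes the phosphate from NADP(H), had the lowest p in NAMPT LKO Fasting against WT Fasting livers, with a log2 fold change of -0.64 (adjusted p = 0.798).

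Among 12 tested NAD consumers, the deacetylase gene Sirt1 rose from 6.79 ± 0.44 CPM (SD, n = 2) in WT Refed to 10.5 ± 0.51 CPM (SD, n = 3) in WT Fasting livers (log2 fold change 0.63, adjusted p = 0.0335, edgeR's quasi-likelihood test), and Parp1, the main poly(ADP-ribose) polymerase of DNA repair, fell from 41.7 ± 3.39 CPM to 29.8 ± 0.58 CPM, a log2 fold change of -0.49 (adjusted p = 0.0192). Of all genes, 7.04% were called in that comparison. In NAMPT LKO Fasting against WT Refed livers, where 11.2% of all genes were called, Sirt1, Parp1 and the ectoenzyme gene Bst1 passed. Their log2 fold changes were 0.75, -0.41 and 2.32, but Bst1 averaged below 1 CPM in every group. It was not tested without NAMPT LKO Fasting 3, because it passed the filter through that liver alone, a member of the group where it was high. Parp3 had the lowest p of the list in NAMPT LKO Fasting against WT Fasting livers, with a log2 fold change of -0.57 (adjusted p = 0.798).

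The remaining lists held fewer calls. Of 8 tested genes of synthesis from tryptophan, 0 were called between WT Fasting and WT Refed livers, against 7.04% of all genes. At an unadjusted p under 0.05, 2 of the 8 passed, against 22.3% of all genes. Tdo2, which opens that route, was called in NAMPT LKO Fasting against WT Refed livers (log2 fold change 0.66, adjusted p = 0.04, edgeR's quasi-likelihood test), but in only 4 of the 10 fits that leave out 1 library. The call was lost without either WT Refed liver, WT Fasting 1, WT Fasting 2, NAMPT LKO Fasting 2 or NAMPT LKO Fasting 4. Haao had the lowest p in NAMPT LKO Fasting against WT Fasting livers, with a log2 fold change of -0.20 (adjusted p = 0.837). Of 12 tested genes that regenerate NADPH beside Nnt, 0 were called in any comparison, and Aldh1l1 had the lowest p against WT Fasting livers, with a log2 fold change of -0.37 (adjusted p = 0.827). Of the 3 genes for oxidation of nicotinamide, 0 were called, with Aox3 at 0.23 (adjusted p = 0.863). Pnp2, the 1 tested gene of the remaining salvage enzymes, had a log2 fold change of -0.01 (adjusted p = 0.996).

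Nampt transcription is known to follow the circadian clock, so 13 clock genes were read beside it. Per1 rose in WT Fasting livers from 34.9 ± 0.46 CPM (SD, n = 2) to 57.6 ± 7.02 CPM (SD, n = 3), a log2 fold change of 0.73 (adjusted p = 0.0399, edgeR's quasi-likelihood test). Per2 fell from 44.7 ± 2.64 CPM to 13.7 ± 7.08 CPM (log2 fold change -1.71, adjusted p = 0.0232), and Dbp fell from 38.2 ± 23.9 CPM to 10.1 ± 4.31 CPM (log2 fold change -1.93, adjusted p = 0.0349). The other 10 did not pass, so 3 of 13 were called, against 7.04% of all genes. The call of Per1 was lost without WT Fasting 1, 2 or 3 and without NAMPT LKO Fasting 1, 2 or 3. That of Dbp was lost without WT Fasting 1, 2 or 3 and without NAMPT LKO Fasting 2, and that of Per2 without WT Fasting 2. Per2 and Dbp were called again in NAMPT LKO Fasting against the same WT Refed livers, with log2 fold changes of -1.94 and -1.72, which is 2 of 13 against 11.2% of all genes. Without WT Refed 1 the count there was 0 and without WT Refed 2 it was 1. The Dbp value rested on WT Refed 1, without which it was -0.89 there and -1.10 in WT Fasting against WT Refed livers. Between the genotypes, in NAMPT LKO Fasting against WT Fasting livers, 0 of the 13 were called, and Per1 had the lowest p, with a log2 fold change of -0.37 (adjusted p = 0.827). In WT Fasting against WT Refed livers 0 of the 13 were called without WT Refed 1, without WT Refed 2 or without WT Fasting 2, and 1 without WT Fasting 1 or NAMPT LKO Fasting 2.

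**Figure D4:**
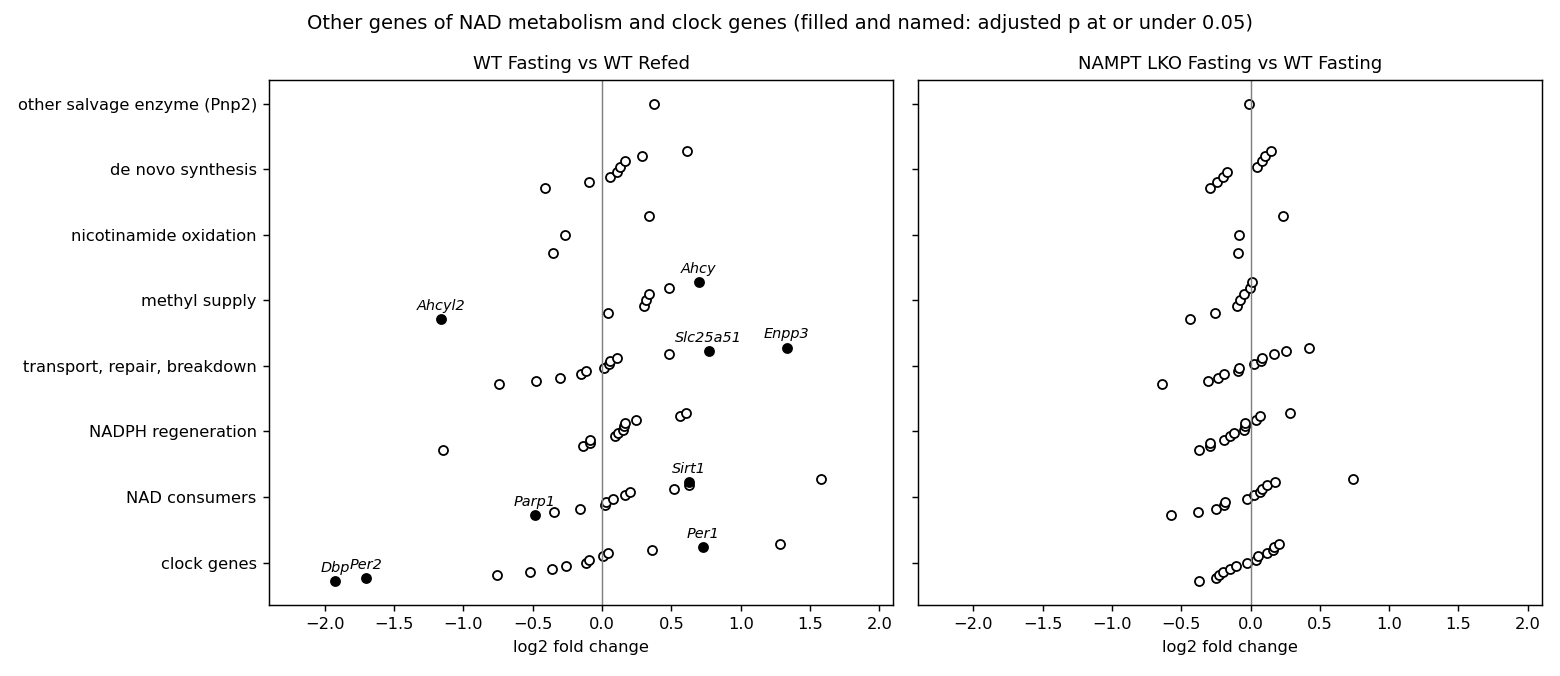
Fitted log2 fold change (x axis) of each tested gene, 1 circle per gene, in 7 lists of NAD metabolism and a list of clock genes (y axis), for WT Fasting against WT Refed livers and for NAMPT LKO Fasting against WT Fasting livers. Filled circles with names mark genes with an adjusted p at or under 0.05, of which there are 9 on the left and 0 on the right.

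Markers of other liver cells were read as well, since the deletion was aimed at hepatocytes. Nampt in the other liver cells was not measured apart. The 5 cholangiocyte markers, all detected, summed to 34.0 to 54.5 CPM in NAMPT LKO Fasting livers, 15.2 to 22.3 CPM in WT Fasting livers and 20.1 to 22.4 CPM in WT Refed livers. Most of that sum was Spp1, at 19.4 to 37.8 CPM in NAMPT LKO Fasting livers. The markers Krt19, Krt7 and Epcam were low but higher in NAMPT LKO Fasting than in WT Fasting livers. Krt19 was at 0.83 to 1.85 CPM in NAMPT LKO Fasting and 0.40 to 0.46 CPM in WT Fasting livers, Krt7 at 0.84 to 1.38 against 0.24 to 0.39 CPM, and Epcam at 1.24 to 2.87 against 0.50 to 1.12 CPM. For these 3 and Spp1 all livers with the deletion lay above all WT Fasting livers. Over all genes tested, 3.99% did not overlap between these groups in either direction. The remaining marker, Sox9, overlapped, at 9.53 to 11.8 against 5.29 to 9.86 CPM. Of the 5 markers 0 were called between these groups, with Spp1 the nearest at a log2 fold change of 1.64 (adjusted p = 0.0603, edgeR's quasi-likelihood test). In WT Refed livers Krt19 (0.65 and 1.11 CPM) and Krt7 (0.99 and 0.58 CPM) overlapped the NAMPT LKO Fasting livers. Epcam (0.63 and 0.65 CPM) and Spp1 (11.8 and 8.95 CPM) lay below them. The 6 stellate cell and fibroblast markers summed to 216 to 290 CPM in NAMPT LKO Fasting and 177 to 230 CPM in WT Fasting livers, which overlap, and to 178 to 181 CPM in WT Refed livers, all below the NAMPT LKO Fasting livers. Most of that sum was Dcn. Col1a1 was at 2.01 to 8.59 CPM in NAMPT LKO Fasting livers, above the 1.25 to 1.67 CPM of WT Fasting livers. The others of this list, Lrat, Reln, Dcn, Col3a1 and Des, each overlapped between these groups. The 6 Kupffer cell and macrophage markers summed to 127 to 298 CPM in NAMPT LKO Fasting livers, the 5 endothelial markers to 172 to 221 CPM, and the 6 lymphocyte and neutrophil markers to 8.50 to 11.5 CPM, and each range overlapped that of WT Fasting livers. Blood markers ranged from 281 to 1341 CPM over the 10 livers. Adipocyte markers stayed under 2 CPM. Pancreatic acinar markers summed to 3.69 to 5.40 CPM in NAMPT LKO Fasting livers, below the 6.54 to 6.75 CPM of WT Fasting livers. Nearly all of that sum was the single gene Cela1, at 3.62 to 5.35 against 6.48 to 6.64 CPM. Prss2 and Cpa1 were at 0 CPM in every library, and Cela2a, Ctrb1 and Pnlip reached at most 0.262 CPM. The sum is thus no measure of acinar cells. The part of these cells in the remaining Nampt level was not tested.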

How the data were processed

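Liver RNA of 10 mice was measured by poly(A) RNA-seq, with 1 library per mouse. The authors aligned 50-base single reads with STAR to GRCm38 and counted unique, unambiguous reads per Ensembl gene with featureCounts (STAR 2.5.1a and featureCounts 1.4.6-p5 in the submitters' processing notes). Whether counting used strand is not given in the sources used here, so reads of a gene and of one within its span on the other strand could not be separated. The deposited counts are raw. The deposited CPM divides them by the library total, and the deposited RPKM divides further by exonic length. Each matched the counts when checked, and neither was tested.

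Groups followed the sample labels. The labels number the WT Fasting and NAMPT LKO Fasting mice, and the numbers of the WT Refed mice were assigned here. After rRNA genes and genes at or below 1 CPM in every library were dropped, 13444 genes were TMM-normalized and tested with the quasi-likelihood test of edgeR 4.0.16 in R 4.3.3, with 1 mean per group in one fit of 10 libraries. Fold changes are fitted log2 values. The test was checked on simulated data. No pair of libraries of the same group matched within sampling noise, and pairs across groups were not compared. Alternatives were voomWithQualityWeights of limma 3.58.1, which the published methods name, edgeR's exact test, DESeq2 1.42.0, other scalings and filters, each library left out, a replicate block and fits of the compared groups alone. A fit without both WT Fasting 3 and NAMPT LKO Fasting 5 was chosen after seeing the data. The genes and lists were chosen with earlier results of these data known. All 10 genes are named, and of the other lists up to 3 called genes of lowest p per comparison and the gene of lowest p in NAMPT LKO Fasting against WT Fasting livers. Of the listed genes, Pnp was not matched. Promoter windows from RefSeq (GRCm38.p6) were matched by symbol for 6 of the 10 genes.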

Additional observations from a re-analysis of the deposited data

How the results depend on the processing

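With alternatives counted over the 10 genes and the 3 comparisons, 533 of 590 values kept both their direction and their side of the threshold, 14 were called in addition, 2 lost the call and 41 changed sign, none of these 41 from a called value. The 2 lost calls were Nampt in NAMPT LKO Fasting against WT Fasting livers in the fits of the libraries numbered 1 to 3, with a log2 fold change of -2.781 with a replicate block (adjusted p = 0.1063) and -2.87 with no block (adjusted p = 0.2694), both with 0 genes and 0 of the 10 called and with fewer livers. The labels tie no mice by number, and deviations of same-numbered livers correlated at 0.115, 0.064 and 0.127, not all over 0.1, so the numbers were not taken to pair mice. The 6 differently numbered pairs lay between -0.188 and 0.006, so each liver correlated best with its own number, which is a hint from the data and not from the design. Between these groups Nampt stayed called in the 10 fits that leave out 1 library, from -3.025 to -2.373. The count of genes called there was 2 with library size alone, 3 with filterByExpr, 17 with no filter, 24 with edgeR's exact test, 24 with DESeq2 and 1 to 2 with a library left out, while Nampt remained the 1 of the 10 called in these.

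Between WT Fasting and WT Refed livers, genes called numbered 3331 with voomWithQualityWeights, 1646 with DESeq2, 1649 with only the 2 groups, 2293 without WT Fasting 3 and NAMPT LKO Fasting 5, and 107 (without WT Refed 2) to 2231 (without NAMPT LKO Fasting 5) with 1 library left out, against 946. Of the 10 genes, 2, 1 and 1 were called with these first 3 settings and 0 to 1 with a library left out. Of the 55 related genes, 14 were called with voomWithQualityWeights, 13 without the pair of livers and 1 to 12 with a library left out. Between NAMPT LKO Fasting and WT Refed livers, 4281 genes were called with voomWithQualityWeights, 3329 without the pair and 227 (without WT Refed 2) to 2835 (without NAMPT LKO Fasting 5) with 1 left out, against 1510. Of the 10 genes, 5 were called with voomWithQualityWeights, 2 with DESeq2, 3 without the pair and 1 to 2 with 1 left out, and of the related genes 17, 11, 15 and 2 to 15. Where 1 refed library is left out, the lone one is taken to vary like the other groups. Library size alone lowered the share of called genes that were higher from 38.1% to 25.7% in WT Fasting and from 41.4% to 26.1% in NAMPT LKO Fasting against WT Refed livers.

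Of 547 values of the other named or called genes, 475 kept both direction and side of the threshold, 68 lost the call and 4, all of Pnp2, changed sign. Small values of the 10 genes changed sign too, and the cause was not tested. For Nadk2 in NAMPT LKO Fasting against WT Refed livers the log2 fold change became -0.085 with library size alone, -0.011 with no filter, -0.021 with voomWithQualityWeights and -0.054 without the pair. Against WT Fasting livers, voomWithQualityWeights gave -0.011 for Nmrk1 and 0.026 for Nadsyn1. The replicate block gave 0.021 for Nmnat3, 0.091 for Nadsyn1 and -0.021 for Nadk2, and the same libraries with no block 0.008, 0.095 and -0.019. Without the pair, values against WT Fasting livers were -0.012 for Nmrk1, -0.002 for Nmnat1, 0.045 for Nadsyn1 and -0.055 for Nadk2. In WT Fasting against WT Refed livers they were -0.097 for Nampt, 0.037 for Nmnat3 and 0.001 for Nadk2, and in NAMPT LKO Fasting against WT Refed livers 0.015 for Nnmt. With 1 library left out, the values in WT Fasting against WT Refed livers ranged from -0.106 to 0.546 for Nampt, -0.125 to 0.279 for Nmrk1, -0.249 to 0.028 for Nmnat3, 0.02 to 0.451 for Nadsyn1, -0.163 to 0.067 for Nadk2 and -0.016 to 0.298 for Nnmt. With 1 library left out, the values in NAMPT LKO Fasting against WT Fasting livers ranged from -0.431 to 0.208 for Pnp2, -0.032 to 0.103 for Nmnat1, -0.243 to 0.043 for Nmnat3, -0.099 to 0.053 for Nadsyn1 and -0.013 to 0.115 for Nadk2. With 1 library left out, the values in NAMPT LKO Fasting against WT Refed livers ranged from -0.05 to 0.354 for Nmrk1, 0 to 0.431 for Nadsyn1, -0.105 to 0.126 for Nadk2 and -0.186 to 0.128 for Nnmt. Leaving out WT Fasting 3 accounts for the negative end for Nampt.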
